A study of Rattus norvegicus with 9 samples.

Results

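The genes described are 10 neuroprotective growth factors and receptors of the rat retina, chosen by name: Fgf1, Fgf2 and Fgfr1 of the fibroblast growth factor (FGF) family, Edn2 and Ednrb of the endothelin family, Cntf and Lif of the interleukin-6 family of cytokines, Bdnf and Ntrk2 of the neurotrophin family, and Gdnf. Of these, 8 were matched by symbol to a probe, 1 each, among 12978 genes with a symbol on the array. The symbols Fgfr1 and Ednrb were not found in the probe annotation used, and both genes were not analyzed here. Retinal transcripts were measured on Illumina RatRef-12 BeadChips in 9 male Sprague-Dawley rats, 4 in the STZ group and 5 in the Control group. STZ rats had received 65 mg/kg streptozotocin, a toxin of insulin-producing beta cells, in citrate buffer by intraperitoneal injection, and were kept only if their blood glucose stayed above 250 mg/dL. Control rats had received the citrate vehicle. Retinas were taken 3 months later, no insulin was given to either group, and the rats' ages are not given in the sources used here. The authors removed 1 diabetic array in quality control. The arrays compare whole retinas, so fewer cells of a type and less RNA per cell cannot be told apart.

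Retinal neurons depend for survival on factors released by glia and by neighboring neurons. FGF2 and CNTF have long been known to slow photoreceptor death in rodents with damaged or degenerating retinas, and Müller glia, which span the retina, are a known source of both. Injured mouse photoreceptors make endothelin 2, which acts on the endothelin B receptor of Müller glia, and LIF takes part in the same response. CNTF and LIF signal through the gp130 receptor subunit to the transcription factor STAT3. BDNF acts through the receptor TrkB, the product of Ntrk2, and GDNF through RET with a GFR-alpha co-receptor.

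Sequences are shown for the 3 detected ligands whose mean signal was higher in STZ retinas, Edn2, Fgf2 and Cntf, so that their upstream regions can be compared beside the values. Each is the 250 bases before the start of the gene in the RefSeq promoter table for GRCr8, written along the gene's own strand. Capitals mark a match to the palindrome TTCNNNGAA, to which STAT factors bind, or to the palindrome TGANTCA, which holds the AP-1 site, searched on both strands.
Edn2, chr5:139036326-139036575, plus strand: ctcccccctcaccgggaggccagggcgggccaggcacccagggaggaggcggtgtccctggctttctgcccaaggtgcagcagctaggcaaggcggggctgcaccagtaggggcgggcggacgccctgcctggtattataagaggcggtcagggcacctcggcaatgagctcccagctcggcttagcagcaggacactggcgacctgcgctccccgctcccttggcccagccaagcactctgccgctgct
Fgf2, chr2:122164204-122164453, plus strand: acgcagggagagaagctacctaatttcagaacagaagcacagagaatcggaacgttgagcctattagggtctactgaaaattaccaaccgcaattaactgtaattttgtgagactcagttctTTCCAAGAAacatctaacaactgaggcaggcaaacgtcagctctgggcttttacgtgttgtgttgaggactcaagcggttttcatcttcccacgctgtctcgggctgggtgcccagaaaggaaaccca
Cntf, chr1:219314536-219314785, minus strand: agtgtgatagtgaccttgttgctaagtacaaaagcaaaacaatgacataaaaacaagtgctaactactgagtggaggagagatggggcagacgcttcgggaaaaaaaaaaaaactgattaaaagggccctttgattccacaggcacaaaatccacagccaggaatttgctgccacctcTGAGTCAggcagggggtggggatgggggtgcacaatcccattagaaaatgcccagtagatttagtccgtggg
The Fgf2 window held 1 match to TTCNNNGAA, beginning 128 bases before the gene start, and the Cntf window held 1 match to TGANTCA, beginning 72 bases before it. The Edn2 window held neither motif. Among all 33469 windows of the table, 7.67% held TTCNNNGAA and 6.34% held TGANTCA. The Edn2 window was 69.6% G and C, the Fgf2 window 46.8% and the Cntf window 46.4%, beside a median of 51.2% over all windows.

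Of the 8 genes with a probe, 5 were detected on 9 of 9 arrays (Fgf2, Edn2, Cntf, Bdnf and Ntrk2) and 3 on 0 of 9 (Fgf1, Lif and Gdnf). Detection means a detection p under 0.05, which asks whether a probe is brighter than the array's negative controls. The 5 detected genes were tested with limma among 10261 probes detected on all arrays of at least 1 group. At an adjusted p under 0.05, 0 of 5 passed, beside 9.32% of all tested probes. At an unadjusted p under 0.05, 4 of 5 passed, Edn2, Cntf, Bdnf and Ntrk2, beside 25.3% of all probes. At the methods' thresholds, an unadjusted p under 0.05 and a 1.2-fold difference, 2 of 5 passed, Edn2 and Cntf, both higher in STZ, beside 10.0% of all probes.

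The adjusted calls depended on how the background was subtracted. The correction used throughout estimates the spread of the negative controls from the detection p, and between 28 and 39 probes an array carried a detection p of 0.05 or more at a signal above 150. The spread so estimated had an SD of 141 to 215 signal units, against 8.52 to 10.6 when the mean and SD were read from the median signal of probes near a detection p of 0.5, 0.16 and 0.84. With the background from median ranks, an alternative chosen after seeing the data, 2 of 5 genes passed the adjusted threshold, Edn2 and Cntf, beside 8.95% of all probes. The same 2 genes passed with the authors' processed values, beside 10.0% of all probes, and with no background correction, also beside 10.0%. The fold with the background from median ranks is therefore given below beside the first one for the 5 genes, and for some of the other genes.

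The BeadChip is a further limit. All 4 STZ arrays and Control 4 and 5 lay on 1 BeadChip, and Control 1, 2 and 3 on the other, called BeadChip 2 and BeadChip 1 here. With the BeadChip as a block, 0 of the 5 genes passed under either background correction. BeadChip 1 held no STZ array, so the block leaves the fold within BeadChip 2, where 4 STZ arrays meet 2 Control arrays. Fitted on BeadChip 2 alone, the 5 genes had adjusted p values of 0.349 to 0.801 by the first correction.

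**Figure D1:**
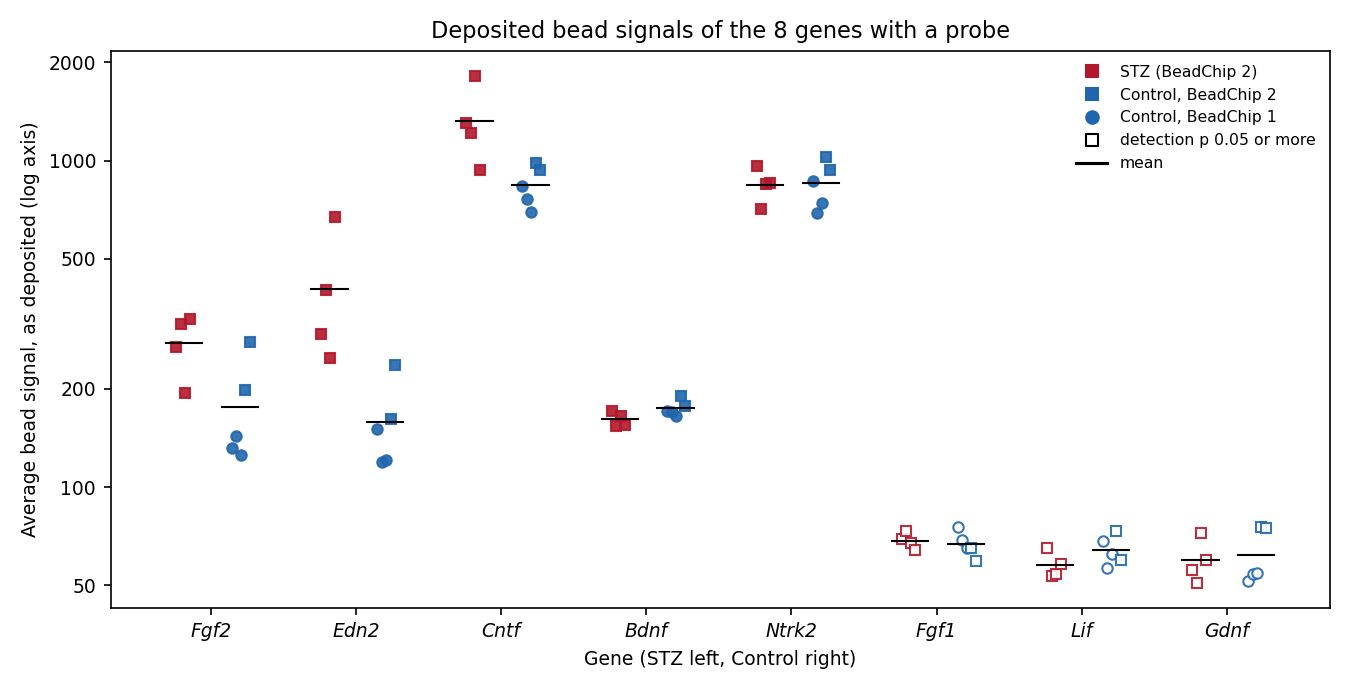
Average bead signal as deposited, before normalization, on a log axis for each of the 9 arrays and the 8 genes with a probe. Squares are BeadChip 2 and circles BeadChip 1, open symbols have a detection p of 0.05 or more, and bars are group means. Signals of Edn2 lay between 248 and 672 in STZ and between 119 and 237 in Control, and Fgf1, Lif and Gdnf lay between 51.0 and 75.6 in all arrays.

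Fgf2 (chr2:122164454-122218796 in GRCr8), a mitogen and survival factor for neurons and glia, had bead signals of 268, 315, 194 and 327 in STZ 1 to 4. In Control 1 to 5 its signals were 132, 144, 125.8, 198 and 278. STZ 1 and STZ 3 lay below Control 5, so the groups overlapped. In deposited signal both Control arrays on BeadChip 2 were brighter than the 3 on BeadChip 1. After normalization only Control 5 was, at a log2 level of 7.75, while Control 4, at 7.395, lay just below Control 2, at 7.397. Normalized log2 levels averaged 7.73 ± 0.29 in STZ (SD, n = 4) and 7.41 ± 0.20 in Control (SD, n = 5). The log2 fold was 0.32 ± 0.15 (SE), or 1.24-fold, with an adjusted p of 0.233 in the limma fit and an unadjusted p of 0.0656. With the background from median ranks it was 0.72 ± 0.30 (adjusted p = 0.158). With the BeadChip as a block the Fgf2 log2 fold was 0.15 by the first correction and 0.27 by the second, below the values of 0.32 and 0.72 without the block (adjusted p = 0.750 and 0.728 with it).
Fgf1, the other prototype FGF ligand, was not detected. Its signals were 64.1 to 73.6 in STZ and 59.2 to 75.5 in Control, and its lowest detection p was 0.0594, in Control 2. A difference in Fgf1 could not be measured at this signal, and the folds of Fgf2 and Fgf1 could not be compared.

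Edn2 (chr5:139036576-139042074), the endothelin that injured photoreceptors make in mice, showed the largest fold of the 5 genes. Its bead signals were 295, 401, 248 and 672 in STZ 1 to 4. They were 151, 119, 121, 161 and 237 in Control 1 to 5. The deposited signals of the groups did not overlap, with the lowest STZ array just above Control 5. After normalization the groups did overlap, between STZ 3 at a log2 level of 7.59 and Control 5 at 7.60. Edn2 averaged 8.15 ± 0.72 in STZ and 7.35 ± 0.14 in Control (log2 level, SD, n = 4 and 5), with STZ 4 farthest from the others, at 9.11. The log2 fold was 0.81 ± 0.29 (SE), or 1.75-fold, and 4 of 4 STZ arrays were above the Control mean (limma adjusted p = 0.124, unadjusted p = 0.0226).
With the background from median ranks the Edn2 log2 fold was 1.43 ± 0.35, or 2.69-fold (adjusted p = 0.0298). By that correction 4 of the 9 fits that each left out 1 array still passed, with log2 folds of 1.08 to 1.66 and adjusted p from 0.0212 to 0.0682. Without STZ 4 the Edn2 log2 fold was 0.49 by the first correction and 1.08 by the second (adjusted p = 0.123 and 0.0452). With the BeadChip as a block the Edn2 log2 fold was 0.71 and 1.12 (adjusted p = 0.430 and 0.236). The direction was the same in all 20 alternatives tried for Edn2 singly.

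Edn2 and Fgf2 ordered the STZ arrays in the same way, STZ 4 highest, then STZ 2, STZ 1 and STZ 3, and both were highest in Control 5 among the Control arrays. In normalized log2 levels STZ 4 and STZ 2 differed by 0.019 for Fgf2 and by 0.81 for Edn2. The order is a description of these 9 arrays, in which all genes of an array share its RNA.

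Cntf (chr1:219312512-219314535), a cytokine that protects photoreceptors and ganglion cells in rodents, had bead signals of 1307, 1219, 1817 and 938 in STZ 1 to 4, against 839, 761, 694, 985 and 933 in Control 1 to 5. The deposited signal of STZ 4 lay within the Control range, while the other 3 STZ arrays were above it. After normalization the groups did not overlap, STZ 4 standing at a log2 level of 9.70 and the highest Control array, Control 2, at 9.69. Of the 5 genes, 2 had groups without overlap after normalization, Cntf and Bdnf, beside 13.0% of all tested probes. Cntf averaged 10.09 ± 0.35 in STZ and 9.53 ± 0.13 in Control (log2 level, SD, n = 4 and 5). The log2 fold was 0.56 ± 0.15 (SE), or 1.48-fold (limma adjusted p = 0.0554, unadjusted p = 0.00554).
With the background from median ranks the Cntf log2 fold was 0.51 ± 0.14 (adjusted p = 0.0439), and 1 of 9 fits that left out an array still passed, that without STZ 4. Unlike Edn2 and Fgf2, Cntf was highest in STZ 3 and lowest in STZ 4. With the BeadChip as a block the Cntf log2 fold was 0.55 by the first correction and 0.50 by the second (adjusted p = 0.242 and 0.211), close to the values without the block. Without STZ 3 it was 0.42, and without STZ 4 it was 0.69 with an adjusted p of 0.0210.
Lif, the related cytokine, was not detected. Its signals were 53.6 to 64.9 in STZ and 56.4 to 73.3 in Control, with detection p values between 0.158 and 0.754. The folds of Cntf and Lif could therefore not be compared.

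Bdnf (chr3:116619633-116670212), the neurotrophin of ganglion cells and inner retinal neurons, had bead signals of 171, 154, 166 and 155 in STZ 1 to 4, against 171, 169, 166, 189.9 and 177 in Control 1 to 5. After normalization all 4 STZ arrays, at log2 levels of 7.27 to 7.34, lay below the 5 Control arrays, at 7.37 to 7.51. The Bdnf log2 fold was -0.099 ± 0.033 (SE), or 0.933-fold (limma adjusted p = 0.0990, unadjusted p = 0.0153). With the background from median ranks the Bdnf log2 fold was -0.33 ± 0.097 (adjusted p = 0.0583), and with the BeadChip as a block as well it was -0.23 (adjusted p = 0.386).

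Ntrk2 (chr17:5560558-5875899), which encodes the BDNF receptor TrkB, had bead signals of 962, 711, 850.0 and 854 in STZ 1 to 4. In Control 1 to 5 they were 869, 689.6, 743, 1026 and 939. The deposited signals overlapped throughout. After normalization 3 STZ arrays lay below all Control arrays, at log2 levels of 9.29 to 9.39, and STZ 4, at 9.54, lay among them. The Ntrk2 log2 fold was -0.17 ± 0.057 (SE), or 0.889-fold (limma adjusted p = 0.104, unadjusted p = 0.0165), and without STZ 4 it was -0.22 with an adjusted p of 0.0230. With the background from median ranks the Ntrk2 log2 fold was -0.15 ± 0.074 (adjusted p = 0.235), and -0.20 without STZ 4 (adjusted p = 0.138). With the BeadChip as a block it was -0.21 by the first correction and -0.18 by the second (adjusted p = 0.228 and 0.410).
Of 5 pairs of genes considered for a comparison of their folds, 1 had both genes detected, the receptor and the ligand of the BDNF pair. The difference Ntrk2 minus Bdnf averaged 2.06 ± 0.12 log2 units in STZ (SD, n = 4) and 2.13 ± 0.095 in Control (SD, n = 5). The groups differed by -0.071, which was not beyond the spread between arrays (two-sided exact permutation test, p = 0.357, with 0.0159 as the smallest p that 4 against 5 arrays allow). That difference was 0.18 with the background from median ranks (exact permutation p = 0.175), so its sign is not settled.

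Gdnf (chr2:58621327-58647242), a survival factor for which Müller glia carry receptors in rodents, was not detected. Its bead signals were 51.0 to 72.5 in STZ and 51.5 to 75.6 in Control, with detection p values between 0.112 and 0.908.

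**Figure D2:**
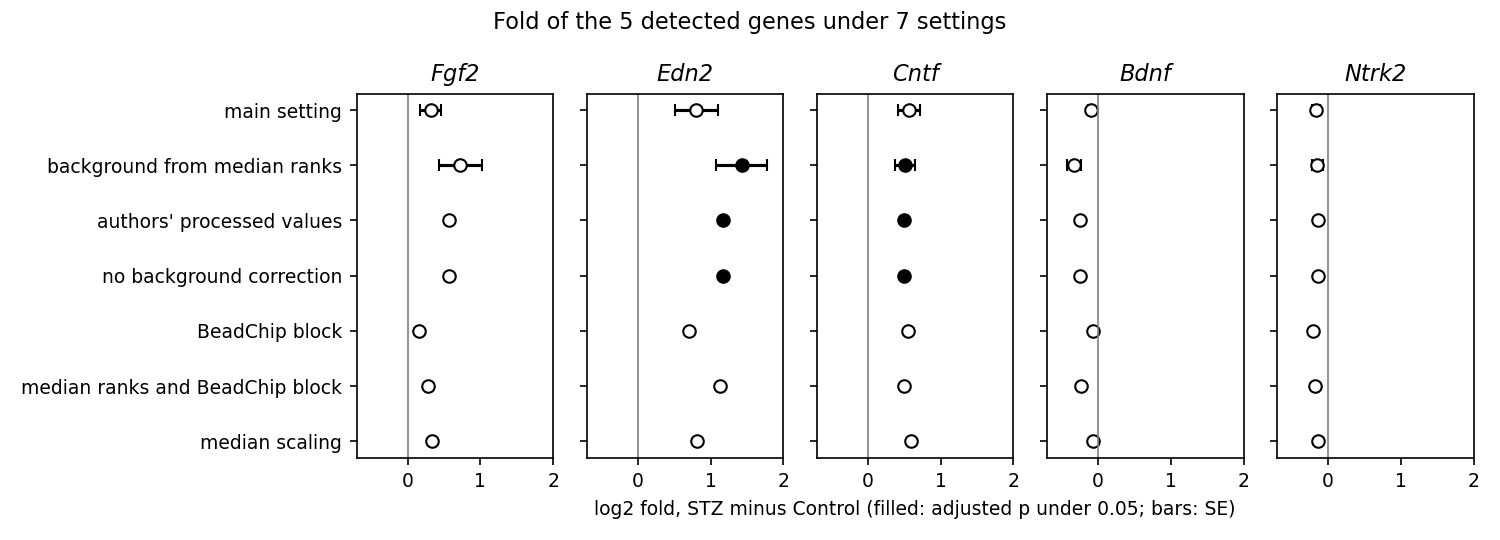
The log2 fold (STZ minus Control) of the 5 detected genes under 7 settings, from the one used throughout at the top to median scaling at the bottom. Filled circles have an adjusted p under 0.05, and bars are standard errors, drawn for the upper 2 settings. Edn2 and Cntf were filled with the background from median ranks, the authors' processed values and no background correction. Edn2 stood there at 1.43, 1.17 and 1.17, and Cntf at 0.51, 0.49 and 0.49. Both were open in the other rows, among them median ranks with the BeadChip block, at 1.12 and 0.50. The Fgf2 fold nearest 0 was that with the BeadChip block, 0.15.

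Other genes of the same pathways were counted in 9 lists. Genes with no probe in the annotation used, 0 to 7 a list, were not analyzed here. List medians, and folds given without a named background, are by the first correction. For some dim genes these folds were nearer 0 than with the background from median ranks. The median log2 fold over all 10261 tested probes was -0.013, and 497 probes were higher and 459 lower in STZ at the adjusted threshold.

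Of 20 other FGF ligands, 4 were detected and 0 passed, with a median log2 fold of -0.030, and 12 were detected on 0 arrays. The smallest adjusted p values were those of Fgf16, a secreted FGF, at 0.478, and Fgf13, an intracellular FGF that binds sodium channels, at 0.580. Of 13 FGF receptors and co-receptors 6 were detected, with a median log2 fold of 0.081, and 1 passed, Fgfr3, a receptor tyrosine kinase for FGFs. Fgfr3 signals were 195, 146, 142 and 123 in STZ, against 92.9, 91.5, 93.2, 99.2 and 102 in Control. All 4 STZ arrays of Fgfr3 were brighter than all 5 Control arrays. Its log2 fold was 0.15 ± 0.028 (adjusted p = 0.0184), and 0.84 with the background from median ranks (adjusted p = 0.00251). The Fgfr3 call was lost in 5 of 19 refits with adjusted p values: with the BeadChip block, within BeadChip 2, with the replicate number as a block, with median scaling and without Control 4. By the first correction its 1.11-fold change lay below the 1.2-fold that the study's methods required. With the authors' processed values the Fgfr3 log2 fold was 0.54, above that threshold (adjusted p = 0.00219). Of 12 genes that FGF signaling induces or that restrain it, 5 were detected and 0 passed, with a median log2 fold of -0.036. Spred1, an inhibitor of the RAS pathway, had a log2 fold of -0.15 (adjusted p = 0.158), and Etv4, a transcription factor induced by FGF, had one of -0.036 (adjusted p = 0.465). With the background from median ranks the Etv4 log2 fold was -0.28 (adjusted p = 0.270).

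Of 8 other endothelin genes 3 were detected and 0 passed, with a median log2 fold of 0.070. Edn1, the vasoconstrictor of endothelial cells, had signals of 187, 134, 142 and 131 in STZ, against 129, 105, 112, 124 and 107 in Control. The Edn1 groups did not overlap, and its log2 fold was 0.070 ± 0.025 (adjusted p = 0.127), or 0.36 with the background from median ranks (adjusted p = 0.0600). Ece1, which cleaves endothelin precursors, had a log2 fold of 0.22 ± 0.17 (adjusted p = 0.479).

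Of 14 other CNTF and LIF family genes only 2 were detected by the rule, Il6r and Il11ra1, the receptors of interleukin 6 and interleukin 11, with log2 folds of 0.058 and 0.031 (adjusted p = 0.204 and 0.762). The receptor genes Cntfr, Lifr and Osmr did not pass the detection rule. In the list of STAT3 and its feedback genes, 4 of 8 were detected and 1 passed, with a median log2 fold of 0.050 over the 4. Stat3 signals were 463, 525, 624 and 612 in STZ, against 288, 242, 299, 368 and 410 in Control. The deposited signals of Stat3 did not overlap, although normalized levels did, through STZ 1 and Control 5. The Stat3 log2 fold was 0.69 ± 0.16, or 1.61-fold (adjusted p = 0.0344), and it was 0.74 with the background from median ranks (adjusted p = 0.0187). Its adjusted p lay between 0.00453 and 0.366 over the alternatives, and of the 9 fits without 1 array it passed in 2, those without Control 5 and without STZ 1. The Stat3 call was also lost with the BeadChip as a block, where the log2 fold was 0.57 (adjusted p = 0.227), within BeadChip 2 (adjusted p = 0.366), with the replicate number as a block (adjusted p = 0.0645) and with no detection filter (adjusted p = 0.0746). Socs3, Socs1 and Cish, inhibitors that STAT signaling induces, were detected on 0 arrays.

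Of 14 other neurotrophin genes 5 were detected and 0 passed, with a median log2 fold of 0.0081. Ngfr, the low-affinity neurotrophin receptor p75, had signals of 929.8, 561, 923 and 699 in STZ, against 484, 468, 587, 605 and 621 in Control. STZ 2 lay within the Control range, and the Ngfr log2 fold was 0.40 ± 0.14 (adjusted p = 0.104). Without STZ 2 it was 0.52 and passed, with an adjusted p of 0.0344. Sorcs3, a sortilin-related receptor, had a log2 fold of -0.073 (adjusted p = 0.195). Of 10 other GDNF family genes 5 were detected and 0 passed, with a median log2 fold of 0.041. Nrtn, the GDNF relative neurturin, had a log2 fold of 0.31 ± 0.14 (adjusted p = 0.230), and Gfra1, the co-receptor for GDNF, had one of 0.076 ± 0.044 (adjusted p = 0.329).

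The list of other retinal survival factors held 23 genes, 14 of them detected, and 6 passed, 5 higher and 1 lower in STZ, with a median log2 fold of 0.090. Mdk, the heparin-binding growth factor midkine, had signals of 3256, 2418, 2749 and 1682 in STZ, against 1158, 1098, 1223, 1418 and 1339.6 in Control. Every STZ array was above every Control array, and the Mdk log2 fold was 0.93 ± 0.14, or 1.91-fold (adjusted p = 0.00844). Tgfb2, a transforming growth factor beta of the eye, had a log2 fold of 0.38 ± 0.054 (adjusted p = 0.00598). Grn, the lysosomal and secreted factor progranulin, had signals of 1061, 805, 799.9 and 541 in STZ, against 483, 398, 443, 572 and 498 in Control. Grn was 0.70 ± 0.15 higher on the log2 scale (adjusted p = 0.0258), with STZ 4 nearest the Control arrays. Pdgfa, a ligand for astrocytes and their precursors, and Pdgfra, its receptor, had log2 folds of 0.71 ± 0.15 and 0.23 ± 0.054 (adjusted p = 0.0234 and 0.0321). The Pdgfra log2 fold lay between 0.18 and 0.62 over the alternatives. Vgf, a neuropeptide precursor induced by neurotrophins in neurons, was lower, with signals of 125.6, 108, 118 and 108 in STZ and 151, 125, 127, 145 and 163 in Control. Its log2 fold was -0.12 ± 0.026 (adjusted p = 0.0254), and -0.61 with the background from median ranks (adjusted p = 0.00347). By the first correction Pdgfra, at 1.18-fold, and Vgf, at 0.920-fold, differed by less than the methods' 1.2-fold.
With the BeadChip as a block 1 of these 6 still passed, Tgfb2, with median scaling 0 of 6 did, and within BeadChip 2 alone 0 of 6 did. The fits without 1 array called 2 to 6 genes of the list.

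**Figure D3:**
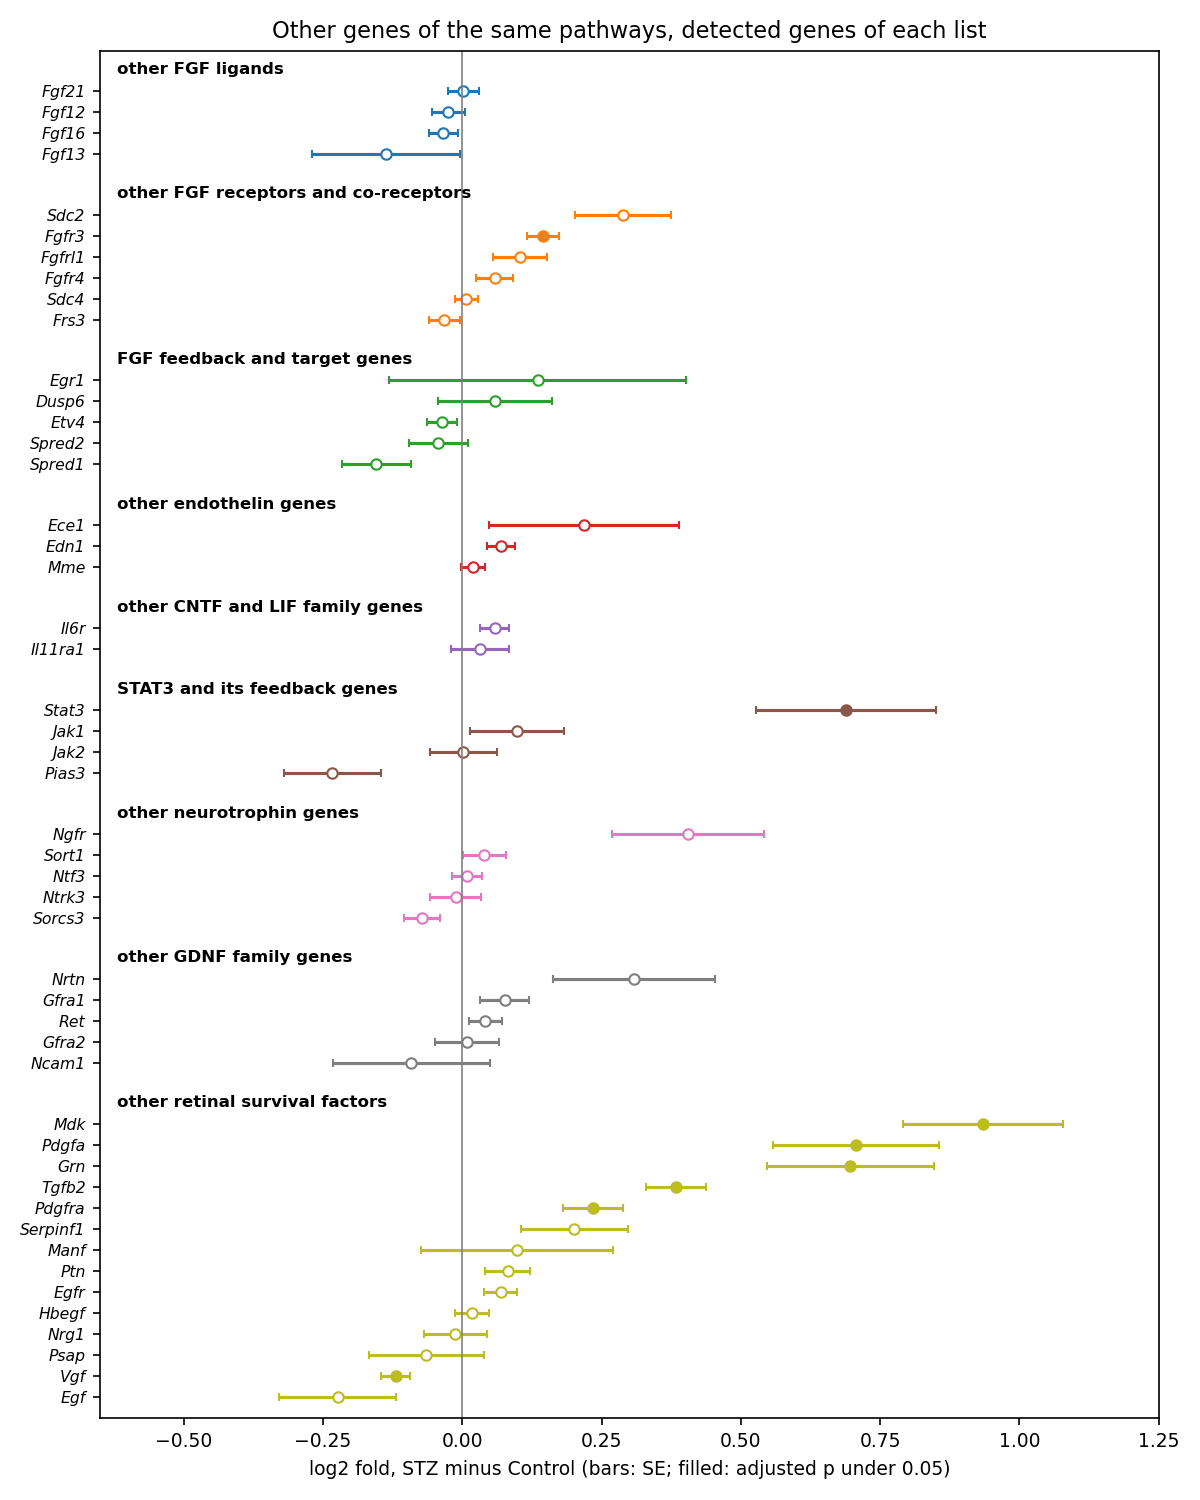
The log2 fold (STZ minus Control) of every detected gene in the 9 pathway lists, with its standard error. Filled circles have an adjusted p under 0.05: Fgfr3, Stat3, and 6 of the other retinal survival factors, of which Mdk at 0.93 was farthest above 0 and Vgf at -0.12 lay below it.

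Marker genes of some other tissues and cell types moved with the groups, and those of others did not. Of 10 detected lens fiber markers 9 passed and were higher in STZ, and their summed normalized level was 64950 to 99496 in STZ and 5084 to 15164 in Control. Among the STZ arrays that sum was lowest in STZ 4, where Edn2 and Fgf2 were highest and Cntf was lowest. Among the Control arrays the lens sum was highest in Control 2, as Cntf was. In STZ the lens sum was highest in STZ 1, whereas Cntf was highest in STZ 3. Of 4 detected astrocyte and reactive glia markers 3 passed and were higher (Lcn2, Serpina3n and Cd44), with sums of 1655 to 4563 in STZ and 727 to 1187 in Control. Serpina3n was detected on 4 of 4 STZ and 2 of 5 Control arrays, so it was tested only through the STZ group. Its normalized log2 levels were 8.66 to 11.79 in STZ, the widest range of the 4 markers. The spread of this sum in STZ therefore rests largely on Serpina3n. That sum was highest in STZ 3 among STZ arrays, as Cntf was, but in Control 5 among Control arrays, where Cntf was highest in Control 2. Of 7 detected Müller glia markers 2 passed and were higher, Vim and Clu, with sums of 50977 to 55499 in STZ and 42572 to 46222 in Control. These are the 2 brightest probes of the list by normalized level in STZ, and the folds of the others differed in sign. Slc1a3 had a log2 fold of 0.28, Rlbp1 one of -0.29, Apoe one of -0.25 and Car2 one of -0.12 (adjusted p = 0.107, 0.182, 0.258 and 0.188). Of 9 detected ganglion cell markers 5 were lower, with sums of 11027 to 13275 in STZ and 14438 to 15821 in Control. Of 9 detected rod markers 1 was lower, Nrl, and the sums were 84732 to 88023 in STZ and 90781 to 93324 in Control. These are sums after normalization. In deposited signal each of the 9 rod markers overlapped between the groups, Prph2 at 18639 to 20577 in STZ and 17770 to 20303 in Control.
Of 5 detected microglia markers 1 was higher, C1qb, with sums of 1158 to 1484 in STZ and 1030 to 1298 in Control, while Itgam, Cx3cr1, Ptprc and Cd74 did not pass the detection rule. Vascular markers (0 of 4 called) summed to 1433 to 1770 in STZ and 1272 to 1484 in Control, and pigment epithelium markers (0 of 5 called) to 1815 to 3697 in STZ and 2226 to 5875 in Control. Extraocular muscle markers (0 of 4 called) summed to 626 to 716 in STZ and 670 to 737 in Control, and blood markers (0 of 3 called) to 4483 to 11584 in STZ and 5835 to 14807 in Control. Among STZ arrays the vascular and ganglion cell sums ran in the same order as Edn2 and Fgf2, highest in STZ 4, then STZ 2, STZ 1 and STZ 3. The Müller glia and rod sums, like the lens sum, were lowest in STZ 4. The microglia, blood and muscle sums were highest in STZ 4. Among Control arrays Edn2 and Fgf2 were highest in Control 5, as were the vascular, microglia, blood, Müller glia and rod sums. The astrocyte and reactive glia sum was highest there too, as given above. The lists share Rlbp1 (Müller glia and pigment epithelium) and Des (vascular and muscle). The comparisons of array order were not planned, and with so few arrays and many lists some orders can match by chance. The part of these marker differences in the results for the growth factors was not tested.

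**Figure D4:**
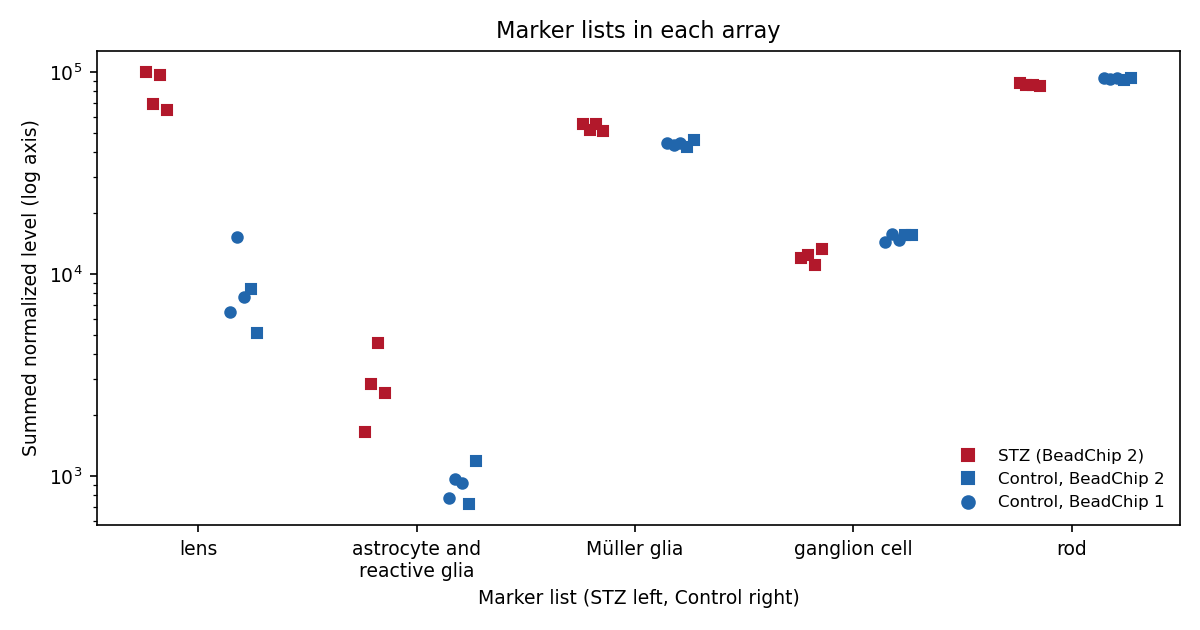
Summed normalized level of 5 marker lists in each array on a log axis, STZ left and Control right, with squares for BeadChip 2 and circles for BeadChip 1. The groups did not overlap in these 5 lists, but they did in every other marker list, and those are not drawn. The groups stood farthest apart for lens markers, at 64950 to 99496 in STZ and 5084 to 15164 in Control.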

How the data were processed

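The authors scanned RatRef-12 BeadChips and exported from GenomeStudio 1.0.6, per the labels, an average bead intensity and a detection p-value for each of 22226 probes and 9 arrays, not normalized. Their processed values of the same arrays, also deposited, are intensities on a linear scale after quantile normalization, whose software step is not given in the sources used here. Median intensities were 76.9 to 87.9 in STZ and 70.0 to 84.4 in Control, with 11207 to 11609 and 10843 to 11524 probes detected. The number of arrays limits the precision. Each rat gave 1 array, so p-values measure the spread between arrays, in which rat and technical differences are not separated. Intensities were corrected by normexp with negative controls inferred from detection p (offset 16), quantile normalized and taken to log2 in limma 3.58.1 (R 4.3.3). Probes detected at p under 0.05 on all arrays of a group were fitted with lmFit and eBayes, with Benjamini-Hochberg adjustment over all of them. A difference is STZ minus Control, and a value after ± is an SD or SE as named. The fit was tested on simulated data.

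Symbols came from the platform annotation (13192 probes with 1 symbol, 0 with several and 9034 without), and loci from RefSeq (GRCr8), where 13151 gene identifiers matched. Probe positions within genes were not used. The text names all 10 genes and, in each pathway list, every gene past the threshold or else the 2 of smallest adjusted p. Genes named beside these, such as Socs3 or Cntfr, were chosen after their values were seen. No member passed, so no genes of like pattern are named. Members and lists were chosen with earlier results of these data known. The alternatives were other background, scaling, offset and detection settings, the BeadChip and replicate blocks, leaving out each array, and the methods' t-test. The median-rank background and the methods' thresholds with limma were added after seeing the data. Python 3.11.15 and matplotlib 3.10.9 drew the tables and figures.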

Additional observations from a re-analysis of the deposited data

Results flagged for a closer look

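Edn2 in Control 5 stood apart from its group, at a log2 level of 7.60 where the other 4 Control arrays were at 7.24 to 7.31. Gfra1 in Control 2 stood apart in the same way, at 7.48 where the others were at 7.35 to 7.37. These were 2 of 50 groups screened for a sample far from the others (25 genes in STZ and in Control), and chance marks about 1 in 20.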

How the results depend on the processing

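The number of probes past the threshold was 956, against 77 with median scaling, 575 with no detection filter, 179 with the BeadChip as a block, 11 within BeadChip 2, 246 with the replicate block and 535 by the methods' t-test after adjustment. Leaving out each array gave 472 to 1008. Of the 5 detected growth factor genes 0 passed, against 2 with the authors' processed values, 2 with no background correction, 2 with the background from median ranks, 1 at a detection p under 0.01, 2 by the methods' t-test at their thresholds, 2 by limma at those thresholds, and 0 to 2 with each array left out. The cause of these changes was not tested. With the replicate block 0 of the 5 passed, the smallest adjusted p being 0.0990 for Fgf2. Same-numbered STZ and Control arrays share only a number, their deviations correlating at -0.082, 0.16, -0.066 and 0.15, and Control 5 has no partner. The difference Ntrk2 minus Bdnf turned to 0.10 with the authors' processed values, 0.10 with no background correction and 0.18 with the background from median ranks, and was -0.12 to -0.034 with each array left out. Il11ra1 ranged over -0.011 to 0.060 with each array left out, below 0 without STZ 1. The folds of the 5 genes kept their sign in all alternatives. STAT3 with its feedback genes gave 0 or 1 call, FGF receptors 0 to 2 and other neurotrophin genes 0 or 1. Signals near the negative controls limit Fgf1, Lif and Gdnf.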
